A study of Mus musculus with 6 samples.

Results

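Macrophages take up cholesterol with lipoproteins and cell debris, and 10 genes of its handling inside the cell are described here in mouse bone-marrow-derived macrophages: Npc1, Npc2, Lipa, Osbp, Soat1, Nceh1, Scarb1, Ch25h, Cyp27a1 and Gpr183. They were chosen by gene symbol from the 16775 genes in the deposited tables, and each symbol matched 1 row. All 10 passed the filter on low values, a CPM of at least 1 in at least 1 library (CPM is the count scaled to a common library size), as did 11908 genes in all.

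Marrow of C57BL/6 mice was grown for 5 days in M-CSF at 10 ng/ml, which directs marrow cells towards macrophages, and treated for 24 hours. There were 6 groups of 1 RNA library each, IL4 alone and IL4 combined with betulin, fatostatin, PF429424, 1,10-Phen or 25-HC. Every group received IL4, the cytokine of alternative activation, so no library shows these genes in untreated cells, and the labels give neither the doses of the compounds nor the age or number of mice. The series title names SREBP2, the regulator of cholesterol synthesis and uptake genes, and the comparison asked here is how each compound library differed from the IL4 library in the genes that move, store and oxidise cholesterol. 25-HC is a common abbreviation of 25-hydroxycholesterol, the product of the Ch25h enzyme, but the labels do not expand it.

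Cholesterol that enters with lipoproteins arrives mostly as cholesteryl ester. In the lysosome, the acid lipase encoded by Lipa frees the sterol, the soluble protein NPC2 hands it to the membrane protein NPC1, and from there it reaches the endoplasmic reticulum and the cell surface. In the endoplasmic reticulum the acyltransferase SOAT1 re-esterifies the excess for storage in lipid droplets, and the hydrolase NCEH1 releases it again. Hydroxylases such as CH25H and CYP27A1 turn cholesterol into oxysterols, which restrain SREBP processing, activate the LXR nuclear receptors and, after further oxidation, attract immune cells through the receptor GPR183.

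With 1 library per treatment no difference has a replicate check, no test between treatments was run and no p-value is given, so every ratio compares 2 libraries. Intervals are exact 95% counting intervals (Clopper-Pearson for ratios, Poisson for levels), cover counting error only and say nothing of variation between cultures. A gene is called at least 2-fold higher or lower when its log2 ratio to IL4 is at least 1 in size and the interval does not hold 0. The libraries held between 20181396 and 21169667 estimated counts. Macrophage markers were present in every library, with none of 9 at 0 and a summed level between 7585 CPM with 25-HC and 11728 CPM with fatostatin. Of 9 neutrophil markers that passed the filter, 7 were at least 2-fold lower with PF429424 and 8 with 1,10-Phen. The summed level of all 10 fixed neutrophil markers was 81.8 and 71.9 CPM there, against 289.6 to 374 CPM in the other libraries. Stromal markers, nearly all of them Col1a1 and Col1a2 counts, summed to between 36.0 and 100.4 CPM. B cell markers summed to between 0.689 and 4.98 CPM, and T cell markers to between 1.63 and 2.46 CPM. In such bulk samples fewer cells of a type and less RNA per cell cannot be told apart. When libraries were scaled by their totals in place of TMM (trimmed mean of M values), the median log2 ratio of all genes moved to -0.25 with 1,10-Phen and to -0.11 with PF429424. Small differences of single genes in those libraries are to be read against that shift.

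The clearest differences lay in the oxysterol enzymes. Cyp27a1 was at least 2-fold lower in 4 of the 5 compound libraries, Ch25h was at least 2-fold higher and Nceh1 at least 2-fold lower with 1,10-Phen, and the other 7 genes stayed within 2-fold of IL4 in every comparison. Among all genes compared, 2.24% with betulin, 5.68% with 25-HC, 5.6% with PF429424 and 11.8% with 1,10-Phen were called lower, and 7.71% were called higher with 1,10-Phen. The promoters of these 3 genes, as windows of 300 bases around an annotated start site, are printed because the largest ratios belong to them. They are RefSeq sequences of GRCm38.p6, written 5′ to 3′ on the gene's strand, and RefSeq windows were matched for 8 of the 10 genes. Capitals mark every match to 1 of 11 searched motifs on either strand.

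Ch25h, chr19:34475099-34475398, minus strand: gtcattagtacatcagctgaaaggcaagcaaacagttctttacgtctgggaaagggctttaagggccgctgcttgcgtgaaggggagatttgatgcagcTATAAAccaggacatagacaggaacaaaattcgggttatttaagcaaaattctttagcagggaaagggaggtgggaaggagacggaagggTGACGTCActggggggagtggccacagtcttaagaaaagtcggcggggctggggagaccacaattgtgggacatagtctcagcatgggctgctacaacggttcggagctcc
Cyp27a1, chr1:74713285-74713584, plus strand: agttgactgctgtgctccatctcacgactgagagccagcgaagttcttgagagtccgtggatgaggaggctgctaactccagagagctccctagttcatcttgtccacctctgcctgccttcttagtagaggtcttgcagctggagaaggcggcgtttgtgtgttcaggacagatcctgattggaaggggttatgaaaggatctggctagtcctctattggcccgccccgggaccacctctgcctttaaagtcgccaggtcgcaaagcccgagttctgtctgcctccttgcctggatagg
Nceh1, chr3:27182754-27183053, plus strand: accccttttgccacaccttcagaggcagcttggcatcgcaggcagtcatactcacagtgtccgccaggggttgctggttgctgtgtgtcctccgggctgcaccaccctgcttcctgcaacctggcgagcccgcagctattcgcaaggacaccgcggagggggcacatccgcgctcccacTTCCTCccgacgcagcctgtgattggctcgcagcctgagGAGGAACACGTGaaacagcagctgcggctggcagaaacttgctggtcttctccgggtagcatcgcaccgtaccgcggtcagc

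In the Ch25h window the capitals are a letter match to the TATA box motif, TATAAA, whose first base lies at -151 from the start site, and a match to the cyclic AMP response element, TGACGTCA, at -61. The latter motif was added to the search after this window had been read, and 1.79% of all 32851 windows hold it, while 13.6% hold the TATA box. In the Nceh1 window they are an E-box, CACGTG, at -26, which contains the 2 overlapping matches to the hypoxia response core ACGTG, and 2 matches to the PU.1 core GAGGAA at -71 and -32. An E-box was found in 7.15% of all windows, the hypoxia response core in 19.6% and the PU.1 core in 28.3%. The Cyp27a1 window held no match to any of the 11 motifs, which says only that these letters do not occur in it. None of the 8 windows held the sterol regulatory element TCACCCCAC (0.551% of all windows), the LXR element of paired half-sites (0.0152%), the CLEAR element of TFEB (0.326%), the interferon-stimulated response element (3.44%), the AP-1 site TGANTCA (7.81%) or the STAT6 site (6.95%). The Cyp27a1 window begins inside the span that RefSeq gives the gene, at a start site further on. The GC content was 51.0% for Ch25h, 55.3% for Cyp27a1 and 63.3% for Nceh1, against a median of 52.7% over all windows.

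Levels of different genes can be compared per transcript length, in FPKM, and in the IL4 library they spanned a wide range. Lipa was the highest of the 10 at 675 FPKM, and only 86 of the 11908 genes had a higher FPKM in that library. Npc2 followed at 228 FPKM, then Soat1 at 113, Nceh1 at 98.1 and Npc1 at 88.8. Scarb1 at 34.9 FPKM and Osbp at 22.8 FPKM were intermediate, while Cyp27a1 at 10.65, Gpr183 at 10.5 and Ch25h at 3.7 FPKM were the lowest. The genes of lysosomal release and of ester turnover were therefore far more abundant than the oxysterol genes, and the lowest 3 carry the widest counting intervals.

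**Figure D1:**
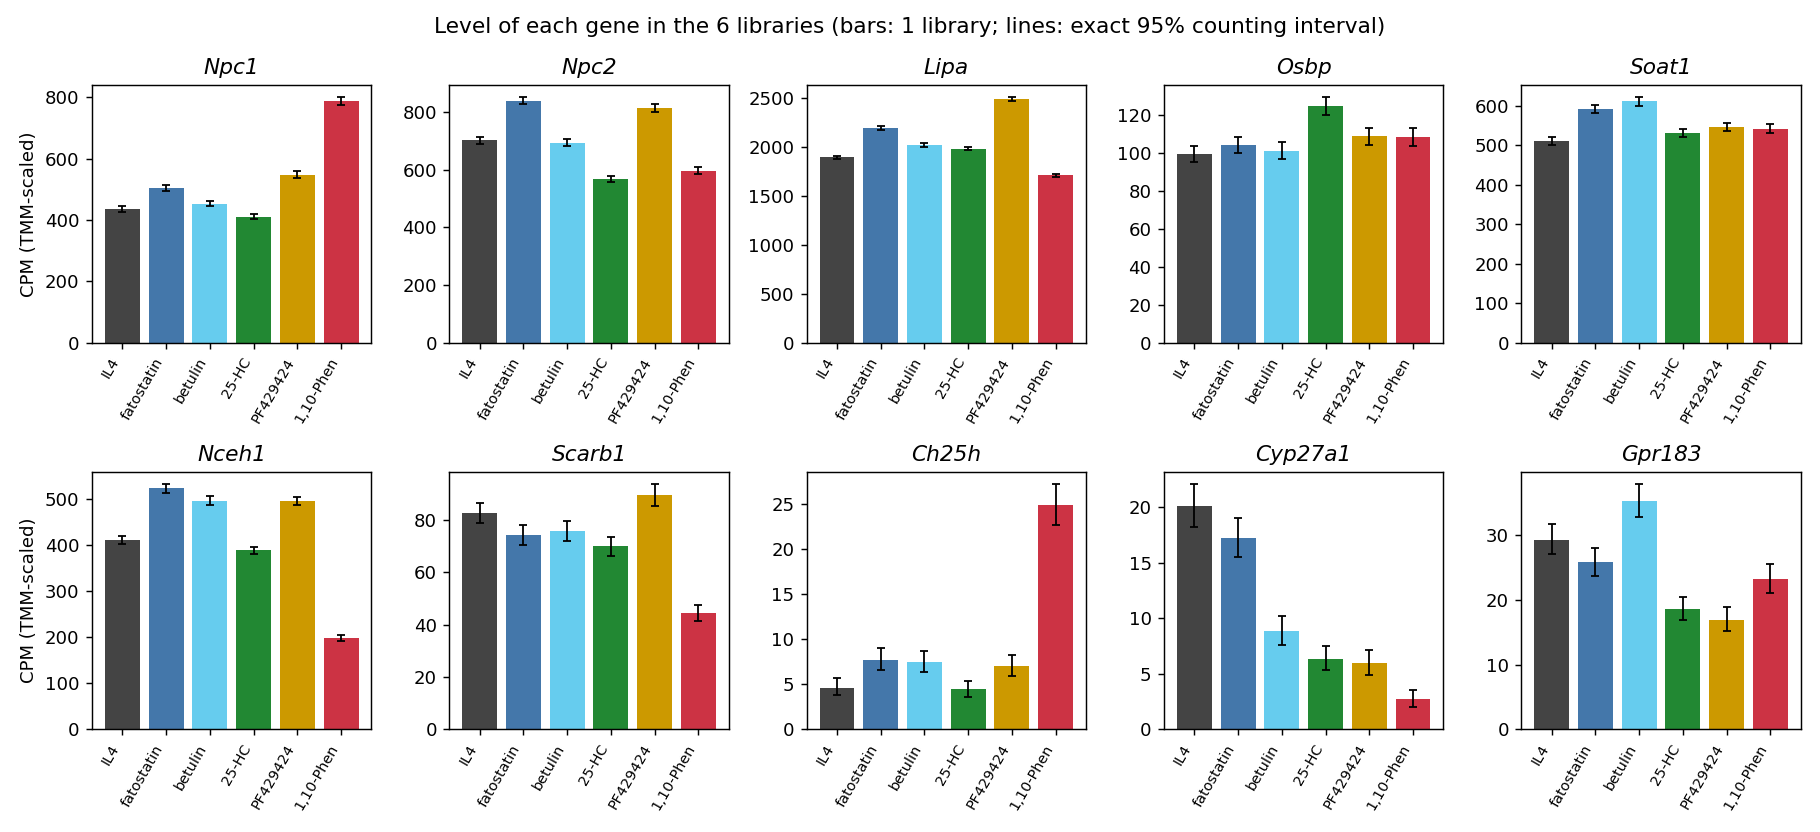
TMM-scaled CPM of the 10 genes (y axes, from 0, each panel with its own scale) in the 6 libraries (x axes). Each bar is 1 library and each line its exact 95% counting interval: Cyp27a1 is highest with IL4 alone at 20.1 CPM and lowest with 1,10-Phen at 2.73 CPM, whereas Ch25h is highest with 1,10-Phen at 24.9 CPM.

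Cyp27a1 encodes the mitochondrial sterol 27-hydroxylase, which makes 27-hydroxycholesterol and lies on chromosome 1 (GRCm38, 74713148 to 74737897, plus strand). Its level was 20.1 CPM with IL4, 17.2 with fatostatin, 8.86 with betulin, 6.33 with 25-HC, 5.96 with PF429424 and 2.73 with 1,10-Phen. All 5 compound libraries lay below IL4, and in the order of the 6 levels only 25-HC and PF429424 did not differ beyond counting error. The log2 ratio to IL4 was -0.22 with fatostatin (interval -0.43 to -0.02; 366 counts against 432), -1.17 with betulin (-1.44 to -0.93; 189 counts) and -1.65 with 25-HC (-1.95 to -1.39; 139 counts). It was -1.74 with PF429424 (-2.06 to -1.46; 121 counts) and -2.84 with 1,10-Phen (-3.33 to -2.46; 51 counts), a 7.15-fold lower level. Few genes stood lower: of 11908 compared, 192 had a lower ratio with betulin, 232 with 25-HC, 179 with PF429424 and 220 with 1,10-Phen. The 5 ratios share the IL4 library, where Cyp27a1 was highest. Against the median of the 6 libraries, the value was 1.19 with fatostatin, 0.24 with betulin, -0.24 with 25-HC, -0.33 with PF429424 and -1.42 with 1,10-Phen. That median contains the compared libraries and falls midway between betulin and 25-HC on the log2 scale, which fixes the signs of both values. It cannot show whether the ratios to IL4 would hold against another IL4 library. Ttll4, the nearest gene upstream of Cyp27a1, was between -0.66 with 1,10-Phen and -0.06 with fatostatin, and Prkag3, the nearest downstream, held at most 1 count.

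Of the 10 genes, Cyp27a1 was the only one called lower with betulin, with 25-HC and with PF429424. None of the 10 was called higher in those 3 libraries, against 1.92%, 3.3% and 2.5% of all genes. Macrophage markers differed beside it: 2 of 9 were at least 2-fold lower and 1 higher with 25-HC, 1 lower with PF429424 and 2 lower with 1,10-Phen, with Mertk at -2.82 and Fcgr1 at -1.88 in the last. None of the 9 was called with fatostatin or betulin. Of the 4 stromal markers that passed the filter, 2 were called lower with betulin (Col1a1 at -1.61 and Col1a2 at -1.53), 2 with PF429424 (Col1a1 at -1.51 and Col1a2 at -1.17) and none in the other libraries. All 8 stromal markers summed to 100.4 CPM with IL4, 78.6 with fatostatin, 36.0 with betulin, 65.0 with 25-HC, 41.5 with PF429424 and 98.9 with 1,10-Phen. Nearly all of these sums were Col1a1 and Col1a2 counts, 1027 and 1048 with IL4, where no other stromal marker exceeded 34 counts. The other stromal markers that passed the filter were not called in any library. The part of these markers, and of the neutrophil markers given above, in the Cyp27a1 values was not tested.

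Ch25h encodes the hydroxylase that makes 25-hydroxycholesterol in the endoplasmic reticulum and is known as a gene that interferon and Toll-like receptor signals induce in macrophages. It is a short gene of 1366 bases on the minus strand of chromosome 19 (34473783 to 34475148), and its nearest RefSeq neighbour is Lipa, 17167 bases away on the same strand. Its level was 4.66 CPM with IL4, 7.76 with fatostatin, 7.50 with betulin, 4.46 with 25-HC, 7.04 with PF429424 and 24.9 with 1,10-Phen. The 1,10-Phen library stood apart from the rest, fatostatin, betulin and PF429424 did not differ from each other as neighbours in the order beyond counting error, and neither did IL4 and 25-HC. With 465 counts against 100, the ratio with 1,10-Phen was 2.40 on the log2 scale (2.10 to 2.75), or 5.26-fold, and 183 of 11908 genes had a higher one. On the log2(FPKM + 1) scale, which compresses low genes and is not TMM-scaled, that difference was 1.91. With library totals alone it was 2.16.

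Below the 2-fold mark, the Ch25h ratios were 0.73 with fatostatin (interval 0.37 to 1.11), 0.68 with betulin (0.32 to 1.06) and 0.59 with PF429424 (0.22 to 0.98). Despite their size these were high among all genes, with 2.22%, 4.19% and 8.13% of genes above them. They share the IL4 library, where Ch25h was low at 100 counts. Against the median of the 6 libraries, Ch25h was at 0.09 with fatostatin, 0.05 with betulin and -0.05 with PF429424. On that reference it was at -0.69 with 25-HC and 1.76 with 1,10-Phen, so only the last stayed at least 2-fold higher. This median contains the compared libraries and falls midway between betulin and PF429424 on the log2 scale. Values near 0 in both are therefore built in and cannot show whether their ratios to IL4 would hold. With 25-HC the ratio to IL4 was -0.06 with an interval from -0.48 to 0.35, so that at 98 counts against 100 a difference was not detectable at this depth. The files count 4 transcript identifiers for Ch25h, of which 1 is a RefSeq transcript, and give the plus strand where the annotation gives minus, as they also do for Soat1 and Scarb1. How reads of the non-RefSeq identifiers enter these counts was not tested.

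With 1,10-Phen the neighbour Lipa was at -0.15 while Ch25h was at 2.40. The next gene on the far side, Fas, which encodes a death receptor and lies 146007 bases away, was at -0.36 there and at -1.63 with 25-HC (34 counts against 107). A companion list of interferon-stimulated genes held 14 that were measured. With 1,10-Phen, where Ch25h was highest, 1 of 14 was at least 2-fold higher and 3 were lower, against 7.71% and 11.8% of all genes. The list median was -0.42 there, against -0.01 over all genes. Rsad2, which encodes the antiviral enzyme viperin, was the higher one at 1.79, while Usp18, an interferon-induced deubiquitinase gene, was at -1.52 and Irf1, an interferon regulatory factor gene, at -1.35. With PF429424 5 of the 14 were higher and 1 lower, against 2.5% and 5.6% of all genes, with a median of 0.14 and Ch25h at 0.59. Those 5 ratios ran from 1.03 to 1.71, on as few as 27 counts with IL4. Over the genes of all 7 companion lists, 6 were called higher with PF429424, and 3 with library totals as the scaling. With fatostatin none of the 14 was called, with a median of 0.20 and Ch25h at 0.73. With betulin 1 was higher and none lower, against 1.92% and 2.24% of all genes, with a median of -0.36 and Ch25h at 0.68. With 25-HC 3 were lower, against 5.68% of all genes, with Oas2, a sensor of viral RNA, at -1.33 among them. Ch25h was at -0.06 there.

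The balance between both hydroxylase genes differed across the libraries. The Ch25h FPKM was 0.347 times that of Cyp27a1 with IL4 and 0.668 times with fatostatin, so Cyp27a1 was the more abundant transcript there. The ratio was 1.27 with betulin, 1.04 with 25-HC and 1.76 with PF429424, and it reached 13.8 with 1,10-Phen. No interval was formed for these ratios. With betulin they rest on 160 Ch25h and 189 Cyp27a1 counts and with 25-HC on 98 and 139, so values this near 1 do not separate the genes. The root mean square difference between the centred log2 profiles of both genes over the 6 libraries was 1.63, the widest of the 45 pairs among the 10 genes.

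**Figure D2:**
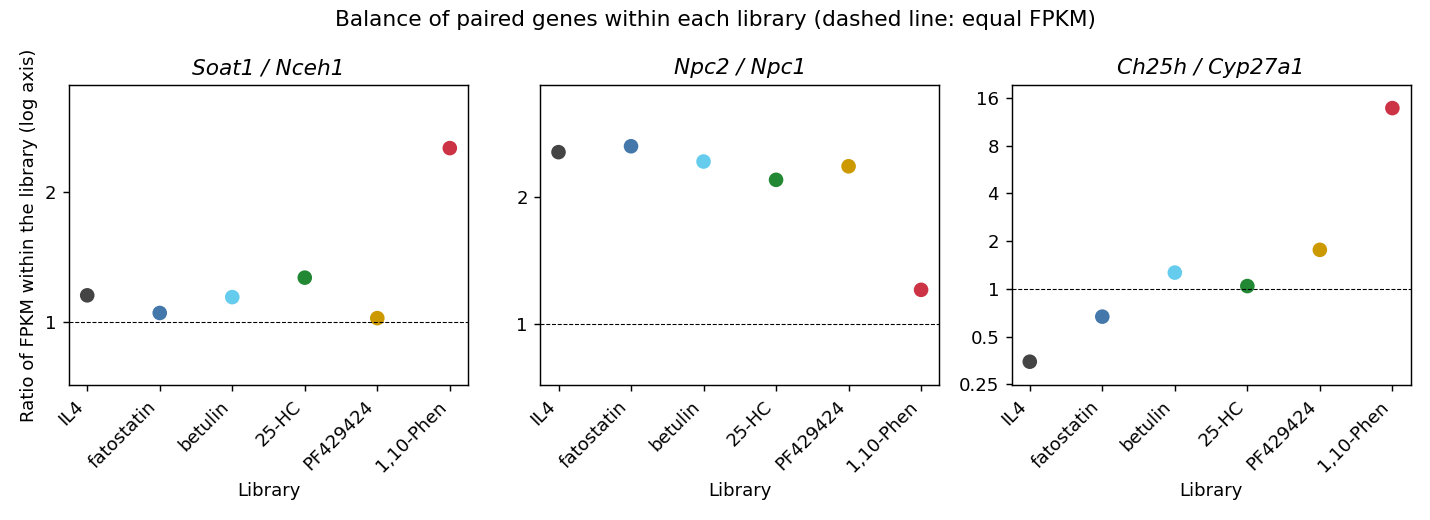
Ratio of FPKM within each library (y axes, log scale) for Soat1 over Nceh1, Npc2 over Npc1 and Ch25h over Cyp27a1 in the 6 libraries (x axes). Each point is 1 library and the dashed line marks equal FPKM: in the 1,10-Phen library Soat1 is at 2.52 times Nceh1, Npc2 at 1.20 times Npc1 and Ch25h at 13.8 times Cyp27a1.

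Gpr183 encodes the G protein-coupled receptor, also called EBI2, for 7-alpha,25-dihydroxycholesterol, a chemoattractant oxysterol that CH25H and CYP7B1 make and HSD3B7 inactivates. Its level was 29.2 CPM with IL4, 25.8 with fatostatin, 35.3 with betulin, 18.6 with 25-HC, 16.9 with PF429424 and 23.2 with 1,10-Phen. Betulin was the highest and PF429424 the lowest, 2.08-fold apart, and the neighbours 25-HC and PF429424, like fatostatin and 1,10-Phen, did not differ from each other beyond counting error. The log2 ratio was -0.65 with 25-HC (interval -0.84 to -0.47; 408 counts against 628) and -0.78 with PF429424 (-0.98 to -0.60; 344 counts). These are below 2-fold, with 11.8% and 8.54% of all genes at lower ratios. The other ratios were 0.27 with betulin, -0.18 with fatostatin and -0.33 with 1,10-Phen.

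Gpr183 lies on the minus strand of chromosome 14 (121952331 to 121965193) inside the span of Ubac2, a gene on the plus strand that encodes a ubiquitin-associated protein. No source used here says whether the counting used strand, and reads of both genes may not be told apart where they overlap. Ubac2 held 687 counts with IL4, 724 with fatostatin, 536 with betulin, 652 with 25-HC, 671 with PF429424 and 588 with 1,10-Phen. Its log2 ratio was -0.11 with 25-HC and 0.05 with PF429424, so it did not share the lower Gpr183 values of those libraries. B cells and dendritic cells are other known sites of Gpr183. The summed B cell markers were 4.98 CPM with IL4 and 0.689 to 3.11 CPM in the compound libraries, and the 1 of them that passed the filter was called lower in all but the fatostatin library. The dendritic cell markers, nearly all of them Itgax counts that macrophages share, were not called with 25-HC or PF429424, and 2 of 3 were lower with 1,10-Phen. Their part in the Gpr183 values was not tested.

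Of the other enzymes on this route, Cyp7b1, the oxysterol 7-alpha-hydroxylase, was at 0 counts in 5 libraries and at 2 with fatostatin, where 3 counts correspond to between 0.137 and 0.161 CPM. Hsd3b7, the gene of the inactivating enzyme, was measured in all libraries, with 1325 counts with IL4 and a log2 ratio between -0.62 with 1,10-Phen and 0.29 with PF429424. The companion list of oxysterol and bile acid precursor enzymes had 16 genes, of which 15 were found in a single row and 8 passed the filter. With 1,10-Phen 3 of the 8 were at least 2-fold lower and 1 higher, against 11.8% and 7.71% of all genes. The median of the 8 was -0.53 against -0.01 over all genes. Lower were Cyp39a1, a 24-hydroxycholesterol 7-alpha-hydroxylase, at -2.15 (9 counts against 53), and Cyp51, a demethylase of sterol synthesis, at -1.50. Fdxr, the reductase that feeds electrons to mitochondrial P450 enzymes such as CYP27A1, was also lower at -1.29. With the other compounds Fdxr lay between -0.06 and 0.18. Fdx1, a ferredoxin gene of the same list, was at 0.05 with 1,10-Phen and between 0.47 and 0.58 with the other compounds. Por, the electron donor of P450 enzymes in the endoplasmic reticulum, was higher in all 5 libraries, between 0.58 with 25-HC and 1.11 with 1,10-Phen, the last being the 1 higher call. Cyp39a1 was also called lower with fatostatin, 25-HC and PF429424, on 15 to 20 counts, and was the 1 such gene of the list in each.

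Among the oxysterol receptors and sensors, 9 of 10 fixed genes passed the filter. Against 11.8% of all genes, 2 of the 9 were at least 2-fold lower with 1,10-Phen. These were Nr1h3, which encodes the oxysterol receptor LXR alpha, at -2.15 (152 counts against 785) and Smo, a sterol-binding signal transducer of the hedgehog pathway, at -2.24. Smo was also lower with 25-HC at -1.85, and the list median lay between -0.12 with 25-HC and 0.36 with 1,10-Phen. Rora, an orphan receptor gene that can bind sterols, was at 0.95 with 1,10-Phen, and Insig2, whose product holds SREBP in the endoplasmic reticulum, at 0.83. Nr1h2, which encodes LXR beta, was at 0.61 with 1,10-Phen and between -0.06 and 0.01 with the other compounds.

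Nceh1 encodes the neutral cholesteryl ester hydrolase of the endoplasmic reticulum and lies on chromosome 3 (27183004 to 27245266, plus strand). Its level was 409.8 CPM with IL4, 522 with fatostatin, 496 with betulin, 388 with 25-HC, 495 with PF429424 and 198 with 1,10-Phen. Only the 1,10-Phen library was far from the others, and betulin and PF429424 did not differ from each other beyond counting error. The log2 ratio with 1,10-Phen was -1.05 with an interval from -1.10 to -0.99 (3706 counts against 8799). It thus lay just beyond the 2-fold mark, and Scarb1 at -0.90 just short of it. With fatostatin Nceh1 was at 0.35, a small difference that only 8.51% of genes exceeded in that library.

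Soat1 encodes the acyl-CoA:cholesterol acyltransferase of macrophages, the step opposite to Nceh1, and lies on the minus strand of chromosome 1 (156428108 to 156474328). Its level was 511 CPM with IL4, 593 with fatostatin, 612 with betulin, 532 with 25-HC, 546 with PF429424 and 543 with 1,10-Phen. This was the narrowest range of the 10 genes, 1.20-fold from lowest to highest, and the largest log2 ratio was 0.26 with betulin. Values with PF429424 (0.10) and 1,10-Phen (0.09) went below 0 when libraries were scaled by their totals, to -0.04 and -0.15. Within a library, Soat1 was at 1.15 times the FPKM of Nceh1 with IL4, between 1.02 and 1.26 times with the other 4 compounds, and at 2.52 times with 1,10-Phen. Lipa, the lysosomal hydrolase, was at 6.88 times the FPKM of Nceh1 with IL4 and at 12.8 times with 1,10-Phen.

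The second acyltransferase gene, Soat2, which is typical of liver and intestine, differed far more than Soat1. It held 19 counts with IL4, 23 with fatostatin, 34 with betulin, 160 with 25-HC, 133 with PF429424 and 272 with 1,10-Phen. The last 3 were called higher, at log2 ratios of 2.91, 2.76 and 3.90, yet its FPKM stayed at or below 6.46 FPKM where Soat1 was above 100 FPKM in each library. In the companion list of cholesteryl ester and lipid droplet turnover, 10 of 14 genes passed the filter, with medians between -0.14 with 1,10-Phen and 0.21 with betulin. Of these 2 were higher with 25-HC, 1 higher and 1 lower with PF429424, and 1 higher and 3 lower with 1,10-Phen. Among all genes 3.3% were higher with 25-HC, 2.5% higher and 5.6% lower with PF429424, and 7.71% higher and 11.8% lower with 1,10-Phen. The second higher gene with 25-HC was Acsl3, an acyl-CoA synthetase of lipid droplets, at 1.58, and with 1,10-Phen it was among the lower ones at -1.30. Lipe, the hormone-sensitive lipase gene, was at -1.26 with 1,10-Phen, and Acsl4, an acyl-CoA synthetase gene, at 0.97 with 25-HC. Plin2 was left out because its symbol stands in more than 1 row of the tables.

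The Lipa product frees cholesterol in the lysosome, and those of Npc2 and Npc1 carry it out. Lipa, on chromosome 19 (34492316 to 34527474, minus strand), was at 1894 CPM with IL4, 2189.7 with fatostatin, 2019 with betulin, 1984 with 25-HC, 2486 with PF429424 and 1709 with 1,10-Phen. PF429424 was the highest library, at a log2 ratio of 0.39, and 1,10-Phen the lowest. Npc2, on chromosome 12 (84754559 to 84773112, minus strand), was at 702 CPM with IL4, 839 with fatostatin, 694 with betulin, 569 with 25-HC, 814 with PF429424 and 596 with 1,10-Phen. Both genes were highest with fatostatin and PF429424, and the root mean square difference of their centred log2 profiles was 0.135, the closest pair among the 10 genes.

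Npc1, on chromosome 18 (12189694 to 12236506, minus strand), differed most from Npc2 in the 1,10-Phen library. It was at 436 CPM with IL4, 504 with fatostatin, 454 with betulin, 410.4 with 25-HC, 548 with PF429424 and 787 with 1,10-Phen. The log2 ratio with 1,10-Phen was 0.85 (interval 0.82 to 0.89; 14696 counts against 9354), below 2-fold and with 9.91% of genes above it, or 0.61 with library totals as the scaling. In that library Npc2 was at -0.23 and Lipa at -0.15. The Npc2 FPKM was 2.56 times that of Npc1 with IL4, between 2.20 and 2.65 times with the other 4 compounds and 1.20 times with 1,10-Phen. At its end Npc1 overlaps Rmc1, a plus-strand gene of an endolysosomal complex, which was at 1.40 with 1,10-Phen (2187 counts against 951). How many Npc1 counts come from the overlap was not tested. The Npc1 ratio with betulin, 0.06, turned to -0.01 with library totals.

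The companion list of lysosomal genes held 25 others, which all passed the filter. None was called with fatostatin, and in each of the other 4 libraries 1 was lower and none higher. That 1 gene was Sgsh, the heparan sulphate sulphamidase gene, at -1.11 with betulin, -2.37 with 25-HC, -1.51 with PF429424 and -1.15 with 1,10-Phen. The list median was 0.12 with fatostatin, 0.07 with betulin, -0.14 with 25-HC, 0.26 with PF429424 and 0.08 with 1,10-Phen, so the higher Lipa and Npc2 values with fatostatin and PF429424 stood beside higher list medians. These small values depend on the scaling. With library totals in place of TMM, Lipa was at 0.25 in place of 0.39 with PF429424, and Npc2 at 0.08 in place of 0.21. With fatostatin, Lipa was then at 0.15 in place of 0.21 and Npc2 at 0.20 in place of 0.26. Below 2-fold, Ctsd, the cathepsin D gene, was at 0.92 with PF429424, Glb1, the beta-galactosidase gene, at -0.82 with 25-HC, and Mitf, a relative of the lysosomal regulator TFEB, at 0.78 with 1,10-Phen. Isca2, 117 bases from Npc2, was between 0.00 and 0.38.

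Osbp encodes the oxysterol-binding protein, which exchanges cholesterol for a phosphoinositide at contact sites between the endoplasmic reticulum and the Golgi, and lies on chromosome 19 (11965844 to 11994114, plus strand). Its level was 99.1 CPM with IL4, 104 with fatostatin, 101 with betulin, 124 with 25-HC, 108 with PF429424 and 108 with 1,10-Phen. The 25-HC library was the highest, with a ratio of 0.33 (interval 0.25 to 0.41), and no neighbours among the other 5 levels differed beyond counting error. Against IL4 itself, the intervals excluded 0 with PF429424 (0.13, 0.04 to 0.22) and with 1,10-Phen (0.12, 0.04 to 0.21). The Osbp ratios with betulin, PF429424 and 1,10-Phen went below 0 with library totals as the scaling.

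The companion list of sterol transfer genes held 19 genes that passed the filter of 21, with list medians between -0.31 with 25-HC and 0.05 with fatostatin. With 1,10-Phen 4 were at least 2-fold lower and 2 higher, with 25-HC 3 lower and 1 higher, with PF429424 3 lower, with fatostatin 1 lower and with betulin none was called. Among all genes the shares called lower were 11.8%, 5.68%, 5.6% and 1.04% with 1,10-Phen, 25-HC, PF429424 and fatostatin. The fatostatin call rested on 13 counts against 29. The same gene, at 11 to 12 counts, was among the lower ones in the other 3 of these libraries. Another call with PF429424 rested on 10 counts against 32. Stard4, a soluble sterol carrier gene that SREBP2 is known to regulate, was at -1.51 with 25-HC, -1.85 with PF429424 and -2.13 with 1,10-Phen. Gramd1b, an Aster protein gene that brings plasma membrane cholesterol to the endoplasmic reticulum and is a known LXR target, was the higher one with 25-HC at 1.48. Osbpl8, an Osbp relative at contacts with the plasma membrane, was at 1.63 with 1,10-Phen and at 0.73 with 25-HC, and Osbpl3 was at -1.97 with 1,10-Phen. Vapa, the membrane anchor that Osbp binds, was at 1.03 in that library.

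Scarb1 encodes SR-BI, the receptor that exchanges cholesterol with high-density lipoprotein, and lies on the minus strand of chromosome 5 (125277087 to 125341094). Its level was 82.7 CPM with IL4, 74.2 with fatostatin, 75.8 with betulin, 69.8 with 25-HC, 89.5 with PF429424 and 44.3 with 1,10-Phen. The 1,10-Phen library was the lowest, with 828 counts against 1775 and a ratio of -0.90 (interval -1.02 to -0.78). With library totals that ratio was -1.14, and on the log2(FPKM + 1) scale it was -1.09, so that Scarb1 passes the 2-fold mark under both. Neither uses TMM scaling, so they are not independent checks. The small ratio with PF429424, 0.11, turned to -0.02 with library totals. In the companion list of lipoprotein exchange, 10 of 12 genes passed the filter, the median lay between -0.40 with PF429424 and 0.09 with 25-HC, and with 1,10-Phen 2 were higher and 1 lower. The higher ones were Vldlr, a lipoprotein receptor gene, at 4.41 (462 counts against 23) and Cd36, a scavenger receptor gene and relative of Scarb1, at 1.44. With 25-HC 3 were higher and 1 lower, with the cholesterol exporter genes Abca1 at 4.06 and Abcg1 at 2.45 in front. With PF429424 3 were lower, among them Abca1 at -2.68. Scarb1 was at -0.24 and 0.11 in those libraries. Among all genes 7.71% were higher and 11.8% lower with 1,10-Phen, 3.3% and 5.68% with 25-HC, and 5.6% lower with PF429424.

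**Figure D3:**
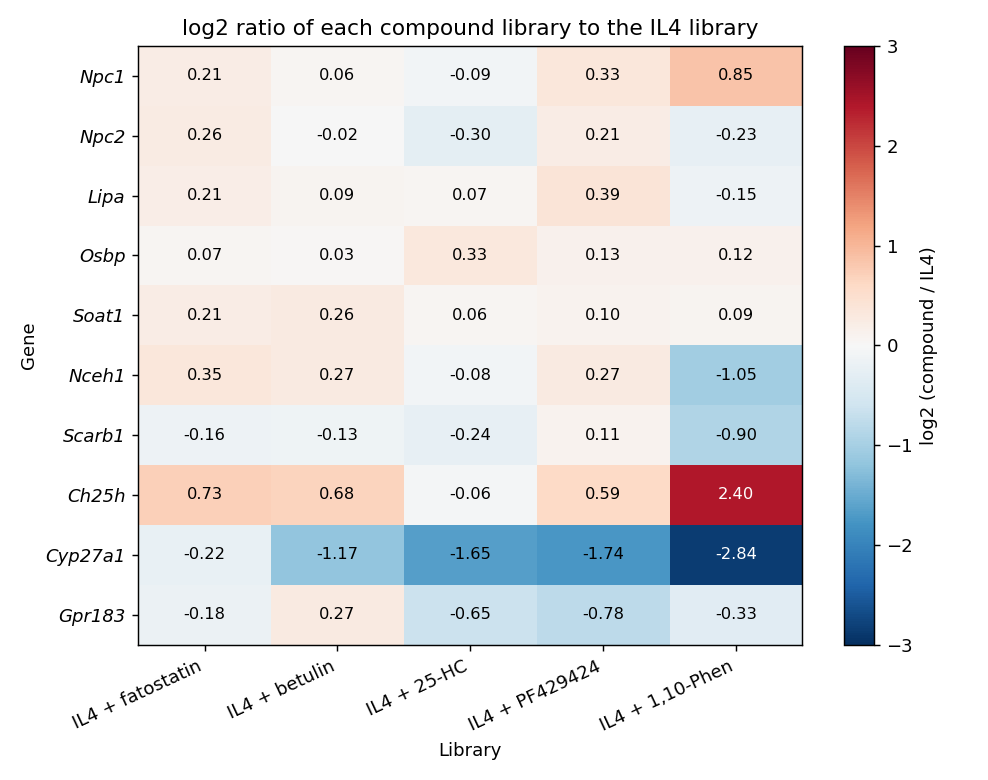
Heat map of log2 (compound / IL4) (colour and printed number) for the 10 genes (rows) and the 5 compounds (columns). Cyp27a1 runs from -0.22 with fatostatin to -2.84 with 1,10-Phen, and the Soat1 row stays between 0.06 and 0.26.

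Set against all genes, the 10 genes showed calls in few places. With 1,10-Phen 1 of the 10 was called higher and 2 lower, while 7.71% and 11.8% of all genes were, so for a list of this size these counts are near the background. With library totals as the scaling, the genes called higher and lower over all genes with 1,10-Phen were 641 and 1940 in place of 918 and 1401, and with PF429424 216 and 871 in place of 298 and 667. With fatostatin none was called in either direction, against 0.873% higher and 1.04% lower over all genes. The median log2 ratio of the 10 was 0.21 with fatostatin, 0.08 with betulin, -0.08 with 25-HC, 0.17 with PF429424 and -0.19 with 1,10-Phen. Over all genes the medians lay between -0.01 and 0.02. With fatostatin and betulin 7 of the 10 were above 0, with 25-HC 3, with PF429424 8 and with 1,10-Phen 4. The median size of the ratio, regardless of sign, was 0.21 against 0.13 for all genes with fatostatin, 0.16 against 0.30 with 25-HC and 0.59 against 0.42 with 1,10-Phen.

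**Figure D4:**
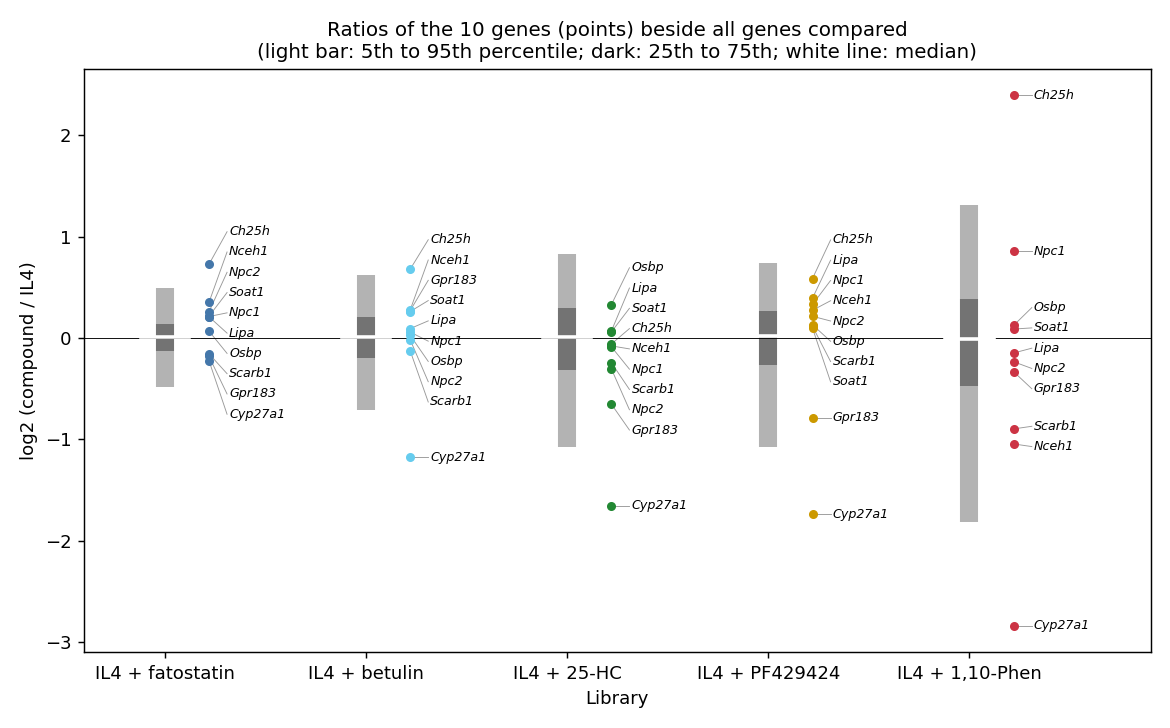
log2 ratio to IL4 (y axis) of the 10 genes (coloured points) beside all 11908 genes compared (grey bars with their percentiles, white line at the median) for the 5 compound libraries (x axis). Cyp27a1 lies below the 5th percentile in the last 4 libraries, and Ch25h lies above the 95th percentile with fatostatin, betulin and 1,10-Phen.

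For the 3 called genes, the most similar profiles were sought among 9959 other genes with a CPM of at least 5 in at least 1 library, by the root mean square difference of centred log2 levels over the 6 libraries. Closest to Cyp27a1 was Apoc2, the gene of a lipoprotein lipase cofactor, at a difference of 0.129. Its log2 ratios were 0.00 with fatostatin, -1.05 with betulin, -1.33 with 25-HC, -1.35 with PF429424 and -2.56 with 1,10-Phen. Ly86, which encodes a partner of a Toll-like receptor homologue, followed at a difference of 0.225. Closest to Ch25h were Ldha, the lactate dehydrogenase A gene (0.196), at 2.05 with 1,10-Phen, and Cd1d1, a lipid antigen-presenting molecule (0.197), at 2.12. Closest to Nceh1 were Dctd, a deoxycytidylate deaminase gene (0.0643), and Cds1, a phospholipid synthesis gene (0.065), at -0.89 and -1.16 with 1,10-Phen. Over 6 libraries such likeness is a description only.

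**Figure D5:**
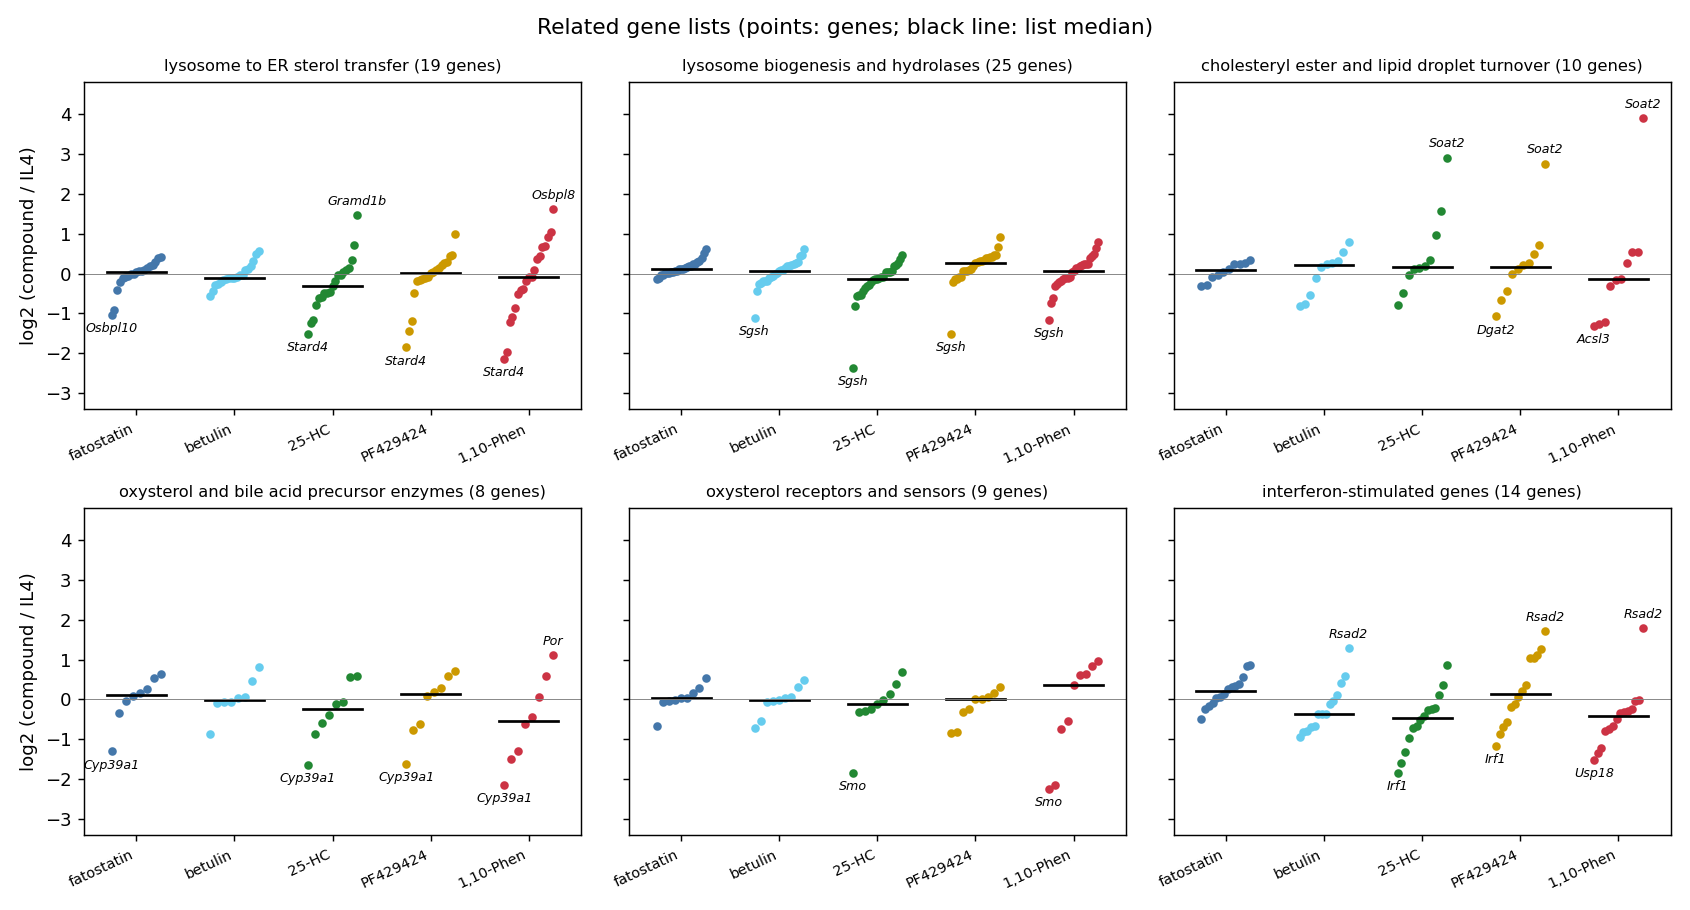
log2 ratio to IL4 (y axes) of the measured genes of 6 companion lists (points, 1 gene each, black line at the list median) in the 5 compound libraries (x axes). Soat2 stands apart from its list with 25-HC, PF429424 and 1,10-Phen at 2.91, 2.76 and 3.90, and Sgsh from the lysosomal list at -2.37 with 25-HC.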

How the data were processed

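Each of the 6 libraries was made from 1 ug of macrophage RNA, with 1 library per treatment. The authors deposited an estimated count per gene (expected count), named Read Count in the file headers and not scaled between libraries; 30.47% to 32.01% of a library's entries were fractional. FPKM, which the authors scaled to length and depth, stood beside them in the deposited tables. HISAT2, Bowtie2, RSEM (1.2.12) and DESeq2 appear in the submitters' processing notes, where no role is given. The chromosome accessions in the files are those of GRCm38.

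With edgeR 4.0.16 in R 4.3.3, rounded counts were scaled by TMM over all 6 libraries and expressed as log2 ratios to IL4 with a prior count of 2. Each has an exact Clopper-Pearson 95% interval for counting error. A floor of 3 counts corresponds to 0.137 to 0.161 CPM. As alternatives, scaling used library totals or DESeq2 1.42.0 size factors, the filter was dropped or raised to a CPM of 5, the prior count was set to 0.5 or 10, FPKM was compared as log2(FPKM + 1), and the reference was the median of the 6 libraries. Positions come from RefSeq (GRCm38.p6), strands from GENCODE.

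Named were the 10 genes, up to 4 genes per companion list with the largest ratios and a CPM of at least 5, the 2 most similar profiles of each called gene and neighbouring genes. Other list genes were named after their values were seen: Cyp39a1, Cyp7b1, Nr1h2 and Vapa, since calls or background on these roles rest on them, and Cd36 and Fdx1. The genes, lists and rules were chosen with earlier results of these data known. A gene that this rule names is not reported here.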

Additional observations from a re-analysis of the deposited data

How the results depend on the processing

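The calls of the 10 genes were the same under DESeq2 size factors, no filter, a CPM of at least 5 and both other prior counts. With library totals and with log2(FPKM + 1), Scarb1 joined the lower genes with 1,10-Phen, 3 in place of 2. With the median of the 6 libraries as reference in place of IL4, Cyp27a1 with betulin turned from -1.17 to 0.24 and with fatostatin from -0.22 to 1.19. With 25-HC it was -0.24 and with PF429424 -0.33, both inside 2-fold, and only 1,10-Phen stayed beyond it at -1.42. The Cyp27a1 median lies below the IL4 level, contains the compared libraries and falls midway between betulin and 25-HC on the log2 scale. Their opposite signs are thus fixed in advance, and this reference cannot show whether the calls against IL4 hold. Under the alternatives that kept IL4 as reference, Cyp27a1 with betulin lay between -1.24 with library totals and -1.09 with log2(FPKM + 1). Of the 50 ratios, 27 moved beyond their counting intervals with library totals and 28 with log2(FPKM + 1). With the median as reference 44 did, and besides these Cyp27a1 with betulin, a called ratio that changed sign as the construction of that median requires. None moved beyond its interval with the other alternatives.

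Counts over all genes depended more on the unit and the filter. With log2(FPKM + 1) the genes at least 2-fold higher and lower numbered 23 and 47 with fatostatin in place of 104 and 124, 76 and 101 with betulin in place of 229 and 267, 174 and 339 with 25-HC in place of 393 and 676, 95 and 397 with PF429424 in place of 298 and 667, and 401 higher with 1,10-Phen in place of 918. With a CPM of at least 5 there were 42 higher and 64 lower with fatostatin, 137 and 146 with betulin, 439 lower with 25-HC and 432 lower with PF429424. With a prior count of 10 there were 51 higher and 76 lower with fatostatin, and with no filter 166 were higher with it. No paired analysis was possible because each group has 1 library. The lowest counts limit Cyp27a1 with 1,10-Phen (51 counts) and Ch25h with IL4 (100) most, and variation between cultures is unknown for all values.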
